A study of Homo sapiens with 16 samples.

Results

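H9 cells that had received an siRNA against OCT4 (siOCT4) were compared with H9 cells that had received a control siRNA (labelled NC), both at 20% oxygen. H9 is an established human embryonic stem cell line, grown here in mTeSR1 medium without feeder cells. For each culture, total RNA and the RNA held in ribosome-nascent chain complexes (RNC, messages caught with ribosomes and growing peptides) were sequenced, and the deposited value of a gene is its translation ratio, the RNC value over the RNA value. The series holds 16 libraries that give 8 columns of ratios, 2 cultures each for siOCT4 and control siRNA at 1% and at 20% oxygen. The comparison at 20% oxygen rests on 8 of those libraries and 4 of the columns, called siOCT4 cultures 1 and 2 and control cultures 1 and 2. Of 28252 genes in the table, 15864 had a ratio in all 8 columns and were tested. Separate growth of the 2 cultures of a group is not stated, so a p-value here covers the spread between cultures only, and that spread may be technical. The siRNA dose and the time after it was given are not stated either.

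OCT4, the product of POU5F1, is a transcription factor that holds embryonic stem cells in the pluripotent state together with SOX2 and NANOG, and its loss lets such cells differentiate, towards trophoblast among other fates. A message that is stored, or that ribosomes fail to start on, is found in total RNA but is scarce in RNC, and its ratio is low. When kinases phosphorylate the initiation factor eIF2 under stress, most messages are started less often, the transcription factor ATF4 is made, and its target genes are transcribed, a program called the integrated stress response. The table holds ratios and no levels, so a change can come from the RNC value or from the RNA value, and it cannot show whether the RNA of POU5F1 fell.

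All 10 markers of pluripotent cells had a ratio in all 4 cultures. A ratio in both siOCT4 cultures was listed for 6 of 7 trophectoderm markers, 5 of 6 fibroblast markers, all 8 markers of endoderm and mesoderm and 4 of 5 neural markers. In both control cultures it was listed for 3, 3, 7 and 3 of these markers. HAND1 is in the trophectoderm set as well as in the endoderm and mesoderm set, and it alone made the difference in the latter. Over all genes, 584 had a ratio in both siOCT4 cultures and in neither control culture, and 183 had one in both control cultures and in neither siOCT4 culture. Whether a ratio is listed is no measure of a level.

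The cultures differed most in how far their ratios departed from 1, and the departure followed the base composition of the transcript. The SD of the log2 ratio over genes was 0.501 and 0.524 in the siOCT4 cultures, against 1.56 and 1.25 in the control cultures. Genes with a transcript GC content of at most 38% had median ratios of 1.48 and 1.42 in the siOCT4 cultures, against 6.08 and 4.80 in the control cultures (474 genes). Genes over 62% GC had median ratios of 0.971 and 1.03 in the siOCT4 cultures, against 0.353 and 0.606 in the control cultures (1624 genes). Between 50% and 54% GC the medians lay together, at 1.06 and 1.05 in the siOCT4 cultures and 0.933 and 0.987 in the control cultures (2081 genes). A spline on GC content accounted for 12.4% and 7.73% of the variance of the log2 ratio in the siOCT4 cultures, against 68.3% and 61.1% in the control cultures. At 1% oxygen the order was the other way round, with 60.7% and 63.0% in the siOCT4 cultures and 0.153% and 9.64% in the control cultures. The trend therefore coincides with the groups, and an effect of the siRNA and a difference between library preparations cannot be told apart here. The ratios give no check of the column labels either, so an exchange of labels, which would turn every direction below, cannot be told apart from the labelled comparison.

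**Figure D1:**
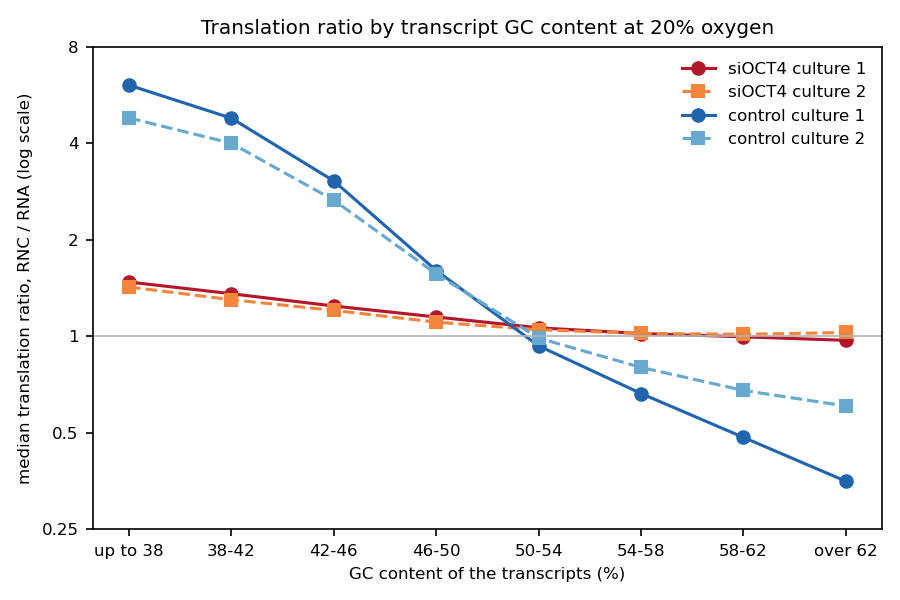
Median translation ratio (log scale) of the genes in 8 ranges of transcript GC content, one line per culture at 20% oxygen. The siOCT4 lines stay between 0.971 and 1.48, whereas the control lines run between 0.353 and 6.08 and cross them between 46% and 54% GC.

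A pair of proteasome genes shows messages at different GC contents. They are shown because they encode parts of the same particle, differ in GC content and lie on opposite sides of the comparison (chosen after their values were seen). Each line gives 60 coding bases of the GENCODE 29 transcript (GRCh38) whose GC content is nearest to that of the gene as a whole, with G and C in capitals.
PSMA4: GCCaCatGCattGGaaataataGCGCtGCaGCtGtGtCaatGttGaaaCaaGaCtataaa
PSMD3: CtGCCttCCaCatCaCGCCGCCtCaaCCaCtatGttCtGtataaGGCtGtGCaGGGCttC
The PSMA4 stretch, coding bases 481 to 540 of a gene on chromosome 15, is 40% G or C, and the PSMD3 stretch, coding bases 301 to 360 of a gene on chromosome 17, is 55%. PSMA4, a subunit of the core that cuts proteins, had ratios of 1.37 and 1.40 in the siOCT4 cultures, against 9.07 and 6.80 in the control cultures. PSMD3, a subunit of the cap that recognises them, had ratios of 0.829 and 0.889 in the siOCT4 cultures, against 0.297 and 0.475 in the control cultures. The 2 messages thus lay closer to each other in siOCT4 cells than in control cells. The log2 change of PSMA4 was -2.50 ± 0.17 as deposited and -0.85 ± 0.13 relative to the GC trend (adjusted p = 0.0148), and that of PSMD3 was 1.19 ± 0.27 and 0.74 ± 0.18 (adjusted p = 0.042), so both also changed relative to genes of like GC content.

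Across up to 14245 mRNAs the Spearman correlation of GC content with the change, siOCT4 minus control on the log2 scale, was 0.848. It was 0.808 for the GC content of the coding sequence, 0.761 for that of the 3′ UTR and 0.217 for that of the 5′ UTR, as a description over genes, which share the same 4 columns. Coding length went with the ratio in siOCT4 cells more than in control cells, with Spearman correlations of -0.327 and -0.418 in the siOCT4 cultures and -0.0547 and -0.0906 in the control cultures. The 275 lincRNAs had median ratios of 1.24 and 1.15 in the siOCT4 cultures, against 1.28 and 1.45 in the control cultures, and 218 of them had a recurrent ratio, one shared by at least 3 genes of a column, as ratios of small whole numbers would be; the reads behind a ratio are unknown.

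Because of the trend the comparison was fitted on 2 scales, the log2 ratio as deposited and the log2 ratio relative to the GC trend of its own culture (15347 genes with a GC content). The ratios printed for single genes are as deposited and include the trend, and a corrected change is given for some genes only. The 2 sizes can differ widely in either direction. UBE2V2 fell 5.50-fold as deposited and 1.56-fold relative to the trend, while PGK1 rose 2.10-fold and 5.23-fold. As deposited, limma's test called 3041 genes higher in siOCT4 cells (19.2% of those tested) and 5409 lower (34.1%) at an adjusted p below 0.05. Relative to the GC trend it called 1454 higher (9.47%) and 1499 lower (9.77%). In both fits and in the same direction, 627 genes were higher (4.09%) and 1306 lower (8.51%), while 263 genes were called in opposite directions by the 2 fits. Below, a gene is said to have risen or fallen only if it passed in both fits. The counts of every list below are to be read beside the shares over all genes of the same kind. For genes that rose or fell in both fits these are 4.09% and 8.51%. For counts as deposited they are 19.2% higher and 34.1% lower, and for counts relative to the GC trend 9.47% higher and 9.77% lower. The median absolute change over genes was 0.893 as deposited and 0.372 relative to the GC trend on the log2 scale. The 2 siOCT4 cultures differed from each other by a median of 0.146 and 0.137 on these scales, and the 2 control cultures by 0.358 and 0.254. Relative to the GC trend the calls rest on all 8 columns: without siOCT4 culture 1 limma called 4 genes, without siOCT4 culture 2 it called 2, and with the 4 columns at 20% oxygen alone it called 0 genes, with 3837, 3714 and 4800 at an unadjusted p below 0.05. Quantile normalization, which gives every column the same spread, left 554 genes higher and 1004 lower relative to the GC trend, and turned the direction of the majority in 19 of the 51 gene lists described below; this is said beside each list it touches.

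**Figure D2:**
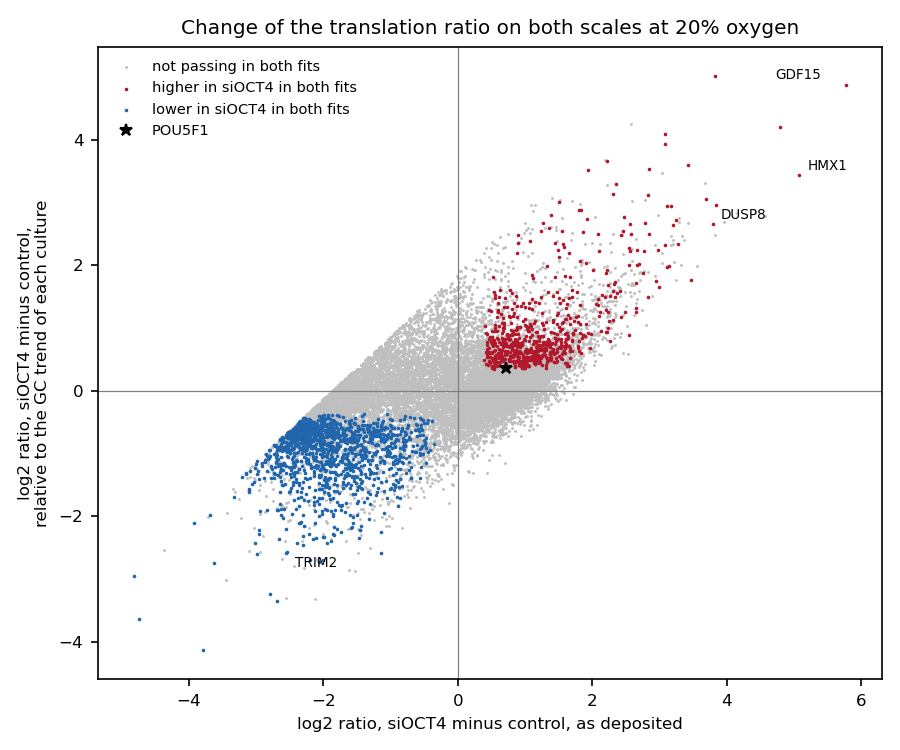
Change of the translation ratio, siOCT4 minus control on the log2 scale, as deposited (x axis) and over the trend with GC content (y axis), one point per gene. The 627 genes that rose in both fits are red, the 1306 that fell are blue, and POU5F1 (star) lies at 0.72 and 0.37.

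POU5F1, the target of the siRNA, had ratios of 1.41 and 1.42 in the siOCT4 cultures, against 0.758 and 0.981 in the control cultures. As deposited the POU5F1 ratio was 1.65-fold higher in siOCT4 cells (log2 0.72 ± 0.22 SE, adjusted p = 0.0383), a direction in which 19.2% of all genes were called. Relative to the GC trend the log2 difference was 0.37 ± 0.18 (adjusted p = 0.196) and did not pass. NANOG had ratios of 1.32 and 1.34 in the siOCT4 cultures, against 2.31 and 2.23 in the control cultures, a log2 difference of -0.78 ± 0.22 as deposited (adjusted p = 0.0285) and -0.11 ± 0.18 relative to the GC trend (adjusted p = 0.71). Quantile normalization turned the NANOG difference as deposited to 0.17. SOX2 had ratios of 1.14 and 1.12 in the siOCT4 cultures, which lay between the 0.978 and 1.30 of the control cultures. For OCT4 and its 2 partners, then, no change of the ratio passed on both scales.

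Of 35 pluripotency genes tested, none rose and 8 fell in both fits. Relative to the GC trend 2 were higher and 8 lower, with a median change of -0.11 beside -0.01 over all genes. CD24, a surface glycoprotein of these cells, had ratios of 1.61 and 1.59 in the siOCT4 cultures, against 7.43 and 5.80 in the control cultures. It fell 4.10-fold as deposited (adjusted p = 0.000653) and 2.53-fold relative to the GC trend (adjusted p = 0.0124). TDGF1, the co-receptor for NODAL also called Cripto, had ratios of 1.43 and 1.53 in the siOCT4 cultures, against 4.51 and 3.56 in the control cultures. LIN28B, which blocks the maturation of let-7 microRNAs, had 1.67 and 1.50 in the siOCT4 cultures, against 9.36 and 8.09 in the control cultures. USP44, a deubiquitinase, had 1.62 and 1.90 in the siOCT4 cultures, against 12.6 and 9.70 in the control cultures. The log2 change relative to the GC trend was -1.20 ± 0.16 for TDGF1, -1.05 ± 0.14 for LIN28B and -1.17 ± 0.22 for USP44. Quantile normalization turned the direction of TDGF1 on both scales and that of CD24 relative to the GC trend, and left 1 pluripotency gene higher and 3 lower. ZFP42 went the other way relative to the GC trend alone (named after its values were seen): it had 0.908 and 0.881 in the siOCT4 cultures and 0.947 and 0.972 in the control cultures, a corrected log2 difference of 1.25 (adjusted p = 0.0174).

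Among 10 trophectoderm and trophoblast genes with a ratio throughout, 1 rose and none fell in both fits, and 9 of the 10 had a recurrent ratio, the one that rose among them. As deposited 1 was higher and 2 were lower. Their median change relative to the GC trend was -0.26, and 2 of the 10 had a positive change there. The gene that rose was HLA-G (named after its values were seen), the histocompatibility molecule of trophoblast, with ratios of 2.28 and 2.73 in the siOCT4 cultures against 0.587 and 0.428 in the control cultures. Of 17 endoderm and mesoderm markers and 16 neural markers, none passed in both fits. Of 10 fibroblast and stroma genes, 3 rose and none fell. COL1A2, a chain of type I collagen, had ratios of 0.738 and 0.732 in the siOCT4 cultures, against 0.380 and 0.450 in the control cultures. COL1A1, its partner chain, had 0.723 and 0.715 in the siOCT4 cultures, against 0.226 and 0.339 in the control cultures. TAGLN, an actin-binding protein of contractile cells, had 0.950 and 1.02 in the siOCT4 cultures, against 0.361 and 0.472 in the control cultures. The stroma list turned with quantile normalization, which called none higher and 1 lower, and it turned the sign of COL1A2 as deposited and of COL1A1 relative to the GC trend.

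The 12 genes furthest above control had low RNC values relative to RNA in control cells. GDF15, a secreted stress cytokine, had ratios of 0.884 and 1.04 in the siOCT4 cultures, against 0.0146 and 0.0210 in the control cultures. It was 54.9-fold higher in siOCT4 cells as deposited (log2 5.78 ± 0.31, adjusted p = 0.000653) and 29.3-fold higher relative to the GC trend (log2 4.87 ± 0.13, adjusted p = 0.000855), and it passed without either siOCT4 culture. HMX1, a homeobox transcription factor, had 1.30 and 1.35 in the siOCT4 cultures, against 0.0288 and 0.0541 in the control cultures. DUSP8, a phosphatase that switches off MAP kinases, had 0.949 and 0.907 in the siOCT4 cultures, against 0.0510 and 0.0882 in the control cultures. Each of these 3 messages had ratios between 0.884 and 1.35 in siOCT4 cells and under 0.1 in control cells. The 5th percentile over the genes tested was 0.252 and 0.393 in the control cultures. The folds rest on control ratios far below that, and the reads behind them are unknown.

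Stress-response transcription factors followed. JUN, a subunit of AP-1, had 0.831 and 0.981 in the siOCT4 cultures, against 0.0888 and 0.109 in the control cultures, and rose 6.27-fold relative to the GC trend. DDIT3, the factor also called CHOP, had 1.28 and 1.34 in the siOCT4 cultures, against 0.201 and 0.245 in the control cultures. ATF3 had 1.02 and 1.13 in the siOCT4 cultures, against 0.161 and 0.249 in the control cultures. BHLHE40, a repressor of the circadian and hypoxia programs, had 0.918 and 0.953 in the siOCT4 cultures, against 0.167 and 0.148 in the control cultures. DDIT3, ATF3 and BHLHE40 have GC contents of 50.6%, 50.9% and 52.0%, where the trend lines of the cultures meet, and their folds were 5.90, 5.38 and 5.94 as deposited and 6.32, 5.62 and 5.63 relative to the trend.

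The rest of the 12 genes furthest above control have various roles. TRIB3, a pseudokinase that ATF4 induces, had 1.22 and 1.06 in the siOCT4 cultures, against 0.115 and 0.119 in the control cultures. TXNIP, which binds thioredoxin and limits glucose uptake, had 1.01 and 1.11 in the siOCT4 cultures, against 0.223 and 0.206 in the control cultures, and it too passed without either siOCT4 culture. DDIT4, an inhibitor of mTORC1, had 1.06 and 1.03 in the siOCT4 cultures, against 0.0795 and 0.174 in the control cultures. UPP1, which splits uridine, rose 7.86-fold as deposited and 4.73-fold relative to the GC trend. NPPB, the precursor of B-type natriuretic peptide, rose 4.69-fold as deposited and 3.23-fold relative to the trend.

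**Figure D3:**
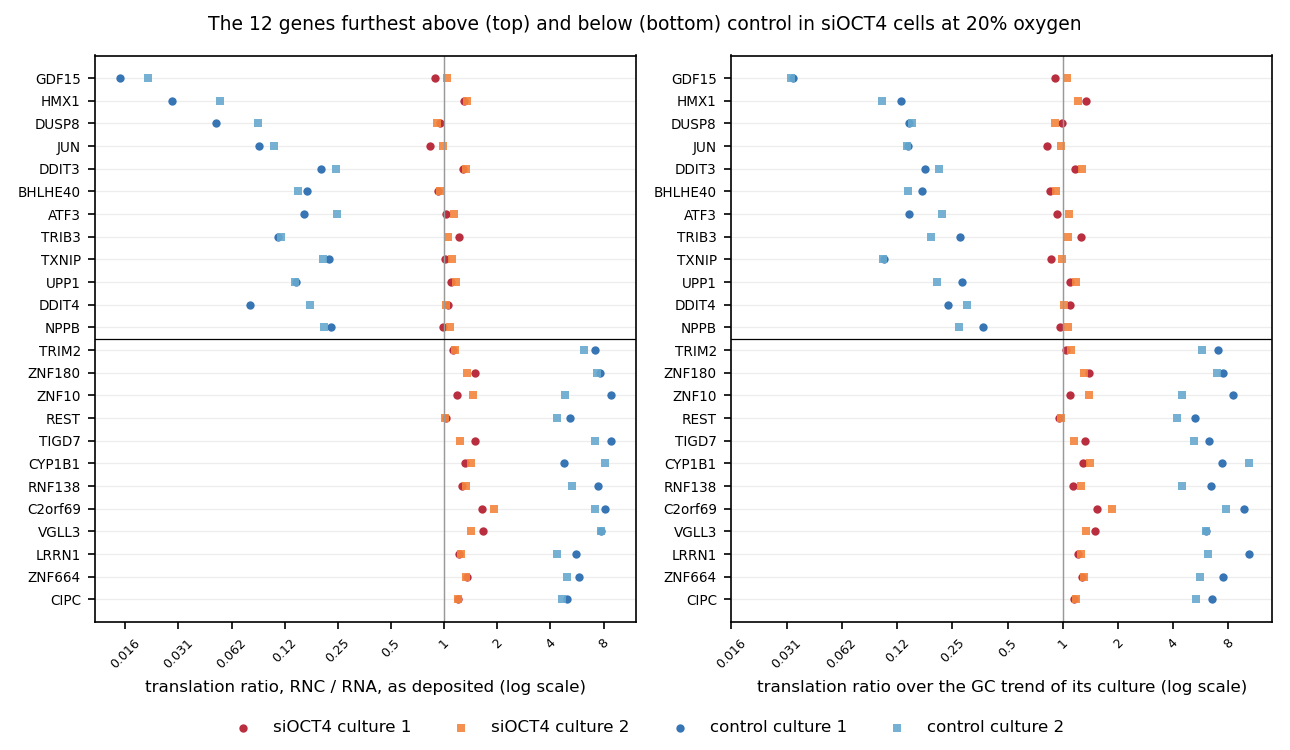
Translation ratio of the 12 genes furthest above and the 12 furthest below control, in each culture at 20% oxygen, as deposited (left) and over the GC trend of its culture (right), on log axes. The siOCT4 values lie between 0.831 (JUN) and 1.91 (C2orf69). The control values lie between 0.0146 and 0.249 for the upper set and between 4.34 and 8.87 for the lower set. Over all genes, too, ratios spread less in the siOCT4 cultures (SD of the log2 ratio 0.501 and 0.524) than in the control cultures (1.56 and 1.25).

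Targets of the integrated stress response were described as a list. Of 34 tested, 22 were higher and 6 lower as deposited, 19 higher and 2 lower relative to the GC trend, and 14 rose and 1 fell in both fits, beside 4.09% and 8.51% of all genes. The median change was 1.30 as deposited and 0.78 relative to the GC trend. Their median ratios were 1.01 and 1.06 in the siOCT4 cultures, against 0.350 and 0.459 in the control cultures. A mean ratio under 0.5 was found for 21 of the 34 in control cells and for 1 of 34 in siOCT4 cells. Over all 15864 genes tested it was found for 2476 in control cells and for 172 in siOCT4 cells. The median GC content of the list was 56.8%. At 54% to 58% GC the control medians over all genes were 0.663 and 0.799. Quantile normalization left 9 of the 34 higher and none lower relative to the GC trend. The list was chosen with earlier results of these data known and is no independent evidence of its direction.

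Within the list the genes named after their values were seen covered several arms of the response. CTH, which makes cysteine, had ratios of 0.972 and 1.12 in the siOCT4 cultures, against 0.404 and 0.410 in the control cultures, and a corrected log2 change of 2.60 (adjusted p = 0.00444). SLC3A2, which pairs with light chains to carry amino acids, had 0.873 and 0.915 in the siOCT4 cultures, against 0.261 and 0.318 in the control cultures. SESN2, a sensor of leucine that restrains mTORC1, had 0.958 and 0.974 in the siOCT4 cultures, against 0.240 and 0.351 in the control cultures, and STC2, a secreted glycoprotein, had 1.14 and 1.13 in the siOCT4 cultures against 0.376 and 0.474 in the control cultures. ASNS, asparagine synthetase, passed relative to the GC trend alone, with 0.805 and 0.872 in the siOCT4 cultures and 0.964 and 0.727 in the control cultures and a corrected log2 difference of 1.22 (adjusted p = 0.0128). ATF4 itself, whose reading frame lies behind short upstream frames, did not move with its targets: its ratios were 1.09 and 1.12 in the siOCT4 cultures, against 1.17 and 1.46 in the control cultures, and its corrected log2 difference of -0.68 passed (adjusted p = 0.0154) while the difference as deposited of -0.24 did not (adjusted p = 0.257). PPP1R15A, the phosphatase subunit that reverses eIF2 phosphorylation, had 0.957 and 1.05 in the siOCT4 cultures, against 0.211 and 0.561 in the control cultures, and did not pass relative to the GC trend (adjusted p = 0.149).

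**Figure D4:**
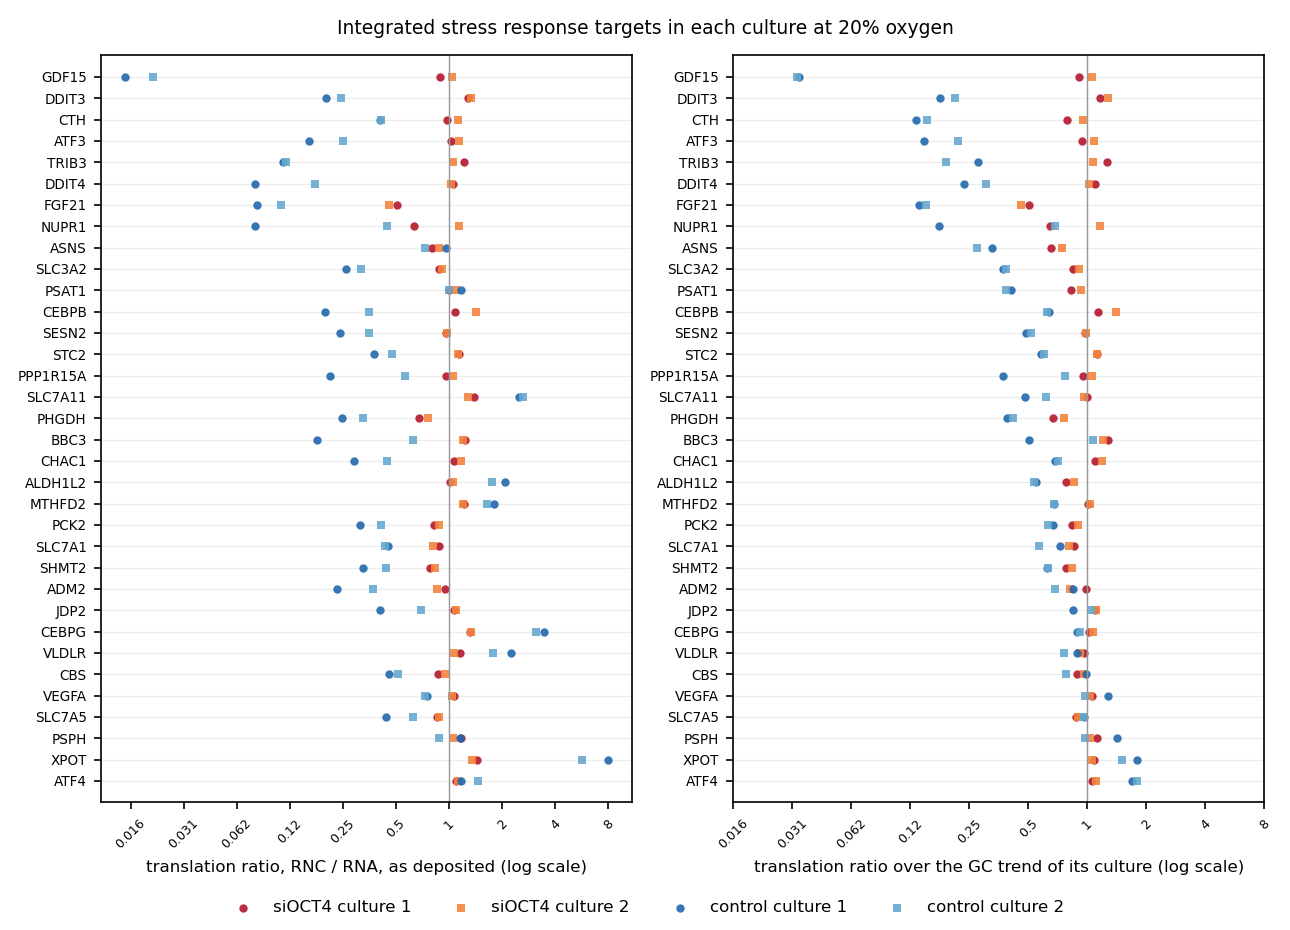
Translation ratio of the 34 integrated stress response targets in each culture at 20% oxygen, as deposited (left) and over the GC trend of its culture (right), on log axes, ordered by the change relative to the trend. The control values spread from 0.0146 (GDF15) to 7.98 (XPOT), while the siOCT4 values of most genes lie close to 1, and ATF4 stands at the bottom.

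Immediate early genes share ATF3 with that list. Of 27 tested, 8 rose and 1 fell in both fits, 17 did not pass relative to the GC trend, and the median change was 1.24 as deposited and 0.36 relative to the GC trend, at a median GC content of 57.7%. Before correction the median ratios were 1.02 and 1.09 in the siOCT4 cultures, against 0.387 and 0.649 in the control cultures. IER5, a regulator of heat shock factor, had 0.865 and 0.928 in the siOCT4 cultures, against 0.209 and 0.421 in the control cultures. Under quantile normalization 4 stayed higher and none was lower relative to the GC trend. Among 17 MAP kinase phosphatases and Sprouty genes, 2 rose and 1 fell. DUSP1 had ratios of 0.695 and 0.873 in the siOCT4 cultures, against 0.273 and 0.417 in the control cultures, whereas SPRED1, an inhibitor of RAS signalling, had 1.31 and 1.27 in the siOCT4 cultures, against 4.81 and 4.47 in the control cultures.

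Of 26 p53 targets, 5 rose and 5 fell. ZMAT3, an RNA-binding protein, fell to 1.37 and 1.30 in the siOCT4 cultures, against 4.72 and 4.15 in the control cultures, a corrected log2 change of -1.82 ± 0.27. PMAIP1, the death inducer NOXA, had 1.68 and 1.70 in the siOCT4 cultures, against 6.73 and 4.63 in the control cultures, and turned its direction with quantile normalization. The list holds GDF15 and SESN2, described above, among those that rose.

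Chaperones of the cytosol and the endoplasmic reticulum were listed separately. Of 22 cytosolic heat shock genes, 6 rose and 2 fell in both fits, and quantile normalization turned the majority, with 1 higher and 4 lower relative to the GC trend. HSPA1A, the inducible HSP70, had ratios of 0.658 and 0.659 in the siOCT4 cultures, against 0.125 and 0.152 in the control cultures. HSPA1B, a near-identical copy that can share reads with it, had 0.582 and 0.661 in the siOCT4 cultures, against 0.122 and 0.175 in the control cultures. BAG3, a co-chaperone of HSP70, had 0.723 and 0.792 in the siOCT4 cultures, against 0.226 and 0.305 in the control cultures. These 3 stress-inducible genes rose 2.84-fold, 2.59-fold and 1.72-fold relative to the GC trend. Of 28 genes of the unfolded protein response and the endoplasmic reticulum, 2 rose and 6 fell. XBP1, the transcription factor that this response activates by splicing, had 1.09 and 1.18 in the siOCT4 cultures, against 0.748 and 0.690 in the control cultures. DNAJB9, a co-chaperone of BiP, had 1.56 and 1.43 in the siOCT4 cultures, against 9.66 and 6.91 in the control cultures. CANX, the lectin chaperone calnexin, had 1.09 and 1.05 in the siOCT4 cultures, against 3.29 and 2.93 in the control cultures. Relative to the GC trend 7 of the 28 were higher and 6 lower, and quantile normalization left none higher and 1 lower.

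The 12 genes furthest below control had ratios between 4.34 and 8.87 in control cells. TRIM2, a ubiquitin ligase, had ratios of 1.13 and 1.15 in the siOCT4 cultures, against 7.20 and 6.19 in the control cultures, and fell 5.85-fold as deposited and 5.94-fold relative to the GC trend (adjusted p = 0.000653 and 0.0124). REST, the repressor of neuronal genes, had 1.03 and 1.01 in the siOCT4 cultures, against 5.19 and 4.34 in the control cultures. CYP1B1, a cytochrome P450, had 1.32 and 1.41 in the siOCT4 cultures, against 4.79 and 8.16 in the control cultures. These have GC contents of 51.5%, 51.9% and 56.1%, above the low GC contents at which control ratios were high. The 12 genes were ranked by the smaller of their changes as deposited and relative to the GC trend. A low-GC gene whose fall followed the trend was therefore ranked low, and a part of base composition was not tested by these genes.

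Genes named ZNF were 3 of these 12. ZNF180 had ratios of 1.51 and 1.35 in the siOCT4 cultures, against 7.61 and 7.37 in the control cultures. ZNF10, a KRAB repressor, had 1.19 and 1.46 in the siOCT4 cultures, against 8.80 and 4.86 in the control cultures. ZNF664 had 1.34 and 1.33 in the siOCT4 cultures, against 5.84 and 4.95 in the control cultures. Of 484 genes named ZNF with a GC content, 6 rose and 93 fell in both fits, and 29 were higher and 98 lower relative to the GC trend, with a median change of -0.27. Quantile normalization left 27 of them higher and 20 lower, so the direction of the family rests on the scale; 194 had a recurrent ratio. The remaining genes of the 12 furthest below control were TIGD7, RNF138 (a ubiquitin ligase of DNA repair), C2orf69, VGLL3 (a cofactor of TEAD factors), LRRN1 (a membrane protein with leucine-rich repeats) and CIPC (a repressor of CLOCK). As deposited, TIGD7 fell by 2.56, RNF138 by 2.28, C2orf69 by 2.11, VGLL3 by 2.33, LRRN1 by 2.01 and CIPC by 2.00 on the log2 scale.

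Energy metabolism follows. Of 24 genes of glycolysis and lactate transport, 17 were higher and 3 lower as deposited, 11 higher and 1 lower relative to the GC trend, and 9 rose and none fell in both fits; quantile normalization turned this to none higher and 3 lower. PGK1, which makes the first ATP of glycolysis, had ratios of 0.821 and 0.838 in the siOCT4 cultures, against 0.417 and 0.373 in the control cultures. At a GC content of 43.3% it rose 2.10-fold as deposited and 5.23-fold relative to the trend. ENO1, enolase, had 0.766 and 0.822 in the siOCT4 cultures, against 0.367 and 0.374 in the control cultures. ALDOC, an aldolase, had 0.876 and 1.01 in the siOCT4 cultures, against 0.259 and 0.369 in the control cultures. HK1, hexokinase, had 0.705 and 0.708 in the siOCT4 cultures, against 0.361 and 0.400 in the control cultures, and quantile normalization turned its direction on both scales.

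Counts of mitochondrial genes stand beside the 4.09% of all genes that rose and the 8.51% that fell in both fits. Of 23 genes of the tricarboxylic acid cycle and pyruvate dehydrogenase, 4 rose and 1 fell. OGDH, oxoglutarate dehydrogenase, had ratios of 0.692 and 0.715 in the siOCT4 cultures, against 0.274 and 0.331 in the control cultures, and MDH2, malate dehydrogenase, had 0.996 and 0.995 in the siOCT4 cultures against 0.501 and 0.551 in the control cultures. Quantile normalization turned the direction of OGDH relative to the GC trend. Of 73 nuclear genes of the respiratory chain, 1 rose and 3 fell in both fits, and 14 were higher and 4 lower relative to the GC trend. ATP5F1B, the catalytic subunit of ATP synthase, had 0.947 and 1.01 in the siOCT4 cultures, against 0.752 and 0.669 in the control cultures. NDUFA5, a subunit of complex I with a GC content of 36.6%, had 1.71 and 1.83 in the siOCT4 cultures, against 10.6 and 7.98 in the control cultures, and its decrease relative to the GC trend turned with quantile normalization. Of 78 mitochondrial ribosomal protein genes, 2 rose and 4 fell, among them MRPL19, with 1.24 and 1.18 in the siOCT4 cultures against 5.80 and 4.88 in the control cultures. HIF-responsive genes outside glycolysis numbered 38, of which 6 rose and 3 fell.

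In lipid synthesis 9 of 30 genes rose and 4 fell, and quantile normalization turned the majority to none higher and 3 lower relative to the GC trend. MVD, an enzyme of the mevalonate pathway, had ratios of 0.896 and 0.973 in the siOCT4 cultures, against 0.161 and 0.350 in the control cultures. ELOVL6, a fatty acid elongase, went the other way, with 1.64 and 1.72 in the siOCT4 cultures and 7.81 and 6.61 in the control cultures, and its corrected direction turned with quantile normalization. Among 41 genes of autophagy and lysosome, 6 rose and 1 fell, and relative to the GC trend 12 were higher and 2 lower, which quantile normalization turned to none and 2. NPC1, the cholesterol transporter of the lysosome, had 0.726 and 0.737 in the siOCT4 cultures, against 0.435 and 0.473 in the control cultures. Its direction as deposited turned with quantile normalization. SQSTM1, the autophagy receptor p62, had 0.805 and 0.828 in the siOCT4 cultures, against 0.293 and 0.344 in the control cultures. In mTORC1 and AMPK signalling 4 of 35 rose and 4 fell. SESN3, a sestrin, fell to 1.22 and 1.23 in the siOCT4 cultures, against 9.10 and 4.93 in the control cultures, the opposite of SESN2.

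Lists of the translation machinery differed. Of 79 cytosolic ribosomal protein genes, none rose and 2 fell in both fits, beside 4.09% and 8.51% of all genes. Relative to the GC trend 5 were higher and 5 lower, 6.33% each way, beside 9.47% and 9.77% of all genes. These shares lie below those over all genes. The median ratios of the ribosomal protein genes were 0.846 and 0.902 in the siOCT4 cultures, against 0.909 and 0.924 in the control cultures. RPS27 had ratios of 0.551 and 0.535 in the siOCT4 cultures, against 1.04 and 1.05 in the control cultures, a corrected log2 change of -1.17 ± 0.12 (adjusted p = 0.0124). RPL7 had 1.15 and 1.17 in the siOCT4 cultures, against 4.81 and 4.23 in the control cultures. Quantile normalization left 1 ribosomal protein gene higher and 19 lower relative to the GC trend.

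Of 52 initiation and elongation factors, 5 rose and 8 fell, and quantile normalization turned 11 higher and 8 lower relative to the GC trend to 2 and 3. EIF2B5, the catalytic subunit of the exchange factor that recharges eIF2, had 0.946 and 0.954 in the siOCT4 cultures, against 0.531 and 0.584 in the control cultures. DENR, a factor for restarting after short reading frames, had 1.82 and 1.65 in the siOCT4 cultures, against 7.26 and 5.31 in the control cultures, and quantile normalization turned its corrected direction. Among 12 kinases, phosphatases and partners that act on eIF2, none rose and PPP1CB, a catalytic subunit of protein phosphatase 1, fell, with 1.42 and 1.44 in the siOCT4 cultures against 9.21 and 7.16 in the control cultures. Of 22 aminoacyl-tRNA synthetase genes, 7 rose and 2 fell, and quantile normalization turned the corrected counts of 10 higher and 2 lower to none and 5. SARS, the seryl enzyme, had 1.06 and 1.00 in the siOCT4 cultures, against 0.526 and 0.510 in the control cultures. NARS, the asparaginyl enzyme, had 1.09 and 1.01 in the siOCT4 cultures, against 4.57 and 3.62 in the control cultures. In ribosome biogenesis 4 of 40 rose and 4 fell, and quantile normalization turned 8 higher and 4 lower relative to the GC trend to none and 5. POLR1A, the largest subunit of RNA polymerase I, had 0.572 and 0.527 in the siOCT4 cultures, against 0.268 and 0.347 in the control cultures, and turned with quantile normalization.

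Genes for RNA handling were grouped by role. Of 40 spliceosome genes, 7 rose and 1 fell. PRPF8, at the heart of the spliceosome, had ratios of 0.471 and 0.442 in the siOCT4 cultures, against 0.236 and 0.251 in the control cultures, and SF3B4, which helps to bind the branch point, had 0.859 and 0.900 in the siOCT4 cultures against 0.437 and 0.504 in the control cultures. PRPF8 and EFTUD2 turned with quantile normalization on both scales, as did SNRPD3, the gene that fell. Of 43 genes of mRNA decay and the microRNA pathway, 3 rose and 9 fell, and quantile normalization left none higher and 8 lower relative to the GC trend. AGO2, the slicing Argonaute, had 0.884 and 0.831 in the siOCT4 cultures, against 1.69 and 1.55 in the control cultures. CNOT8, a deadenylase, had 1.43 and 1.38 in the siOCT4 cultures, against 5.57 and 3.57 in the control cultures. TNRC6A, the scaffold that links Argonaute to deadenylases, had 1.13 and 1.08 in the siOCT4 cultures, against 3.53 and 3.54 in the control cultures.

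Of 19 genes that write, erase or read m6A, a methyl mark on mRNA, none rose and 4 fell, and quantile normalization called none higher and 8 lower. The 4 that fell were readers. YTHDF3 had ratios of 1.02 and 1.05 in the siOCT4 cultures, against 4.41 and 3.68 in the control cultures. IGF2BP3 had 1.00 and 1.03 in the siOCT4 cultures, against 4.13 and 3.22 in the control cultures. YTHDF2, which recruits deadenylases to marked messages, had 0.833 and 0.778 in the siOCT4 cultures, against 1.68 and 1.52 in the control cultures, and IGF2BP2 had 1.16 and 1.10 in the siOCT4 cultures against 2.06 and 2.05 in the control cultures. Among 32 HNRNP and SR protein genes, 2 rose and 2 fell, with 11 higher and 2 lower relative to the GC trend.

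Nuclear transport and transcription follow. Of 35 genes of the nuclear pore and transport, 4 rose and 10 fell, and quantile normalization left 1 higher and 13 lower relative to the GC trend. NUP50, a pore protein that aids import, had ratios of 1.21 and 1.28 in the siOCT4 cultures, against 5.20 and 4.34 in the control cultures. NUP93, a scaffold of the pore, had 0.791 and 0.830 in the siOCT4 cultures, against 0.499 and 0.419 in the control cultures. Of 49 genes of Mediator and general transcription, 1 rose and 9 fell. TAF9, a subunit of TFIID, had 1.65 and 1.58 in the siOCT4 cultures, against 6.36 and 7.07 in the control cultures, and MED21 had 1.66 and 1.75 in the siOCT4 cultures against 6.74 and 6.33 in the control cultures, with corrected directions that turned under quantile normalization. Among 59 chromatin remodellers and Polycomb genes, 7 rose and 4 fell, and quantile normalization turned 12 higher and 4 lower relative to the GC trend to none and 18. PBRM1, a subunit of a SWI/SNF remodeller, had 0.853 and 0.789 in the siOCT4 cultures, against 3.72 and 2.97 in the control cultures.

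Cell cycle and repair lists differed between the 2 scales. Of 45 genes of cohesin, condensin and DNA repair, 3 were higher and 34 lower as deposited but 6 and 6 relative to the GC trend, and 1 rose and 6 fell in both fits. MSH6, which recognises mismatches, had ratios of 0.689 and 0.620 in the siOCT4 cultures, against 2.02 and 1.89 in the control cultures, with a corrected log2 change of -0.93 ± 0.10. Of 48 mitotic genes, 3 rose and 5 fell, and of 48 replication genes 2 rose and 3 fell; quantile normalization turned the corrected majority of both lists. CDK1, the kinase that starts mitosis, had 1.37 and 1.42 in the siOCT4 cultures, against 9.33 and 7.09 in the control cultures. MCM7, a subunit of the replicative helicase, had 0.772 and 0.739 in the siOCT4 cultures, against 0.352 and 0.392 in the control cultures, and quantile normalization turned its corrected direction. Of 40 centrosome and cilia genes, 23 were lower as deposited and 2 rose and 2 fell in both fits, and quantile normalization turned 4 higher and 2 lower relative to the GC trend to 1 and 3.

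Protein turnover and entry into the secretory pathway follow. Of 43 proteasome genes, 4 rose and 4 fell, among them PSMD3 and PSMA4 above. Of 40 genes of ubiquitin and SUMO conjugation, 3 rose and 7 fell. SKP2, the ubiquitin ligase subunit that marks p27, had ratios of 1.27 and 1.23 in the siOCT4 cultures, against 3.71 and 2.93 in the control cultures. UBE2V2, a partner of ubiquitin-conjugating enzymes, had 1.98 and 1.82 in the siOCT4 cultures, against 12.4 and 8.78 in the control cultures. Quantile normalization turned 6 higher and 7 lower relative to the GC trend to 3 and 1 in this list. Of 29 genes of the translocon and signal peptidase, none rose and 5 fell, and quantile normalization turned 2 higher and 5 lower relative to the GC trend to 2 and 1. STT3B, an oligosaccharyl transferase, had 1.12 and 1.13 in the siOCT4 cultures, against 9.10 and 5.88 in the control cultures. SRP9, a subunit of the signal recognition particle, had 1.68 and 1.57 in the siOCT4 cultures, against 10.6 and 8.34 in the control cultures.

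Matrix and cytoskeleton genes moved both ways. Of 76 matrix genes, 9 rose and 6 fell, and quantile normalization turned 10 higher and 6 lower relative to the GC trend to 1 and 14. COL6A3, a chain of type VI collagen, had ratios of 0.610 and 0.612 in the siOCT4 cultures, against 0.230 and 0.289 in the control cultures. VCAN, the proteoglycan versican, had 0.831 and 0.733 in the siOCT4 cultures, against 3.21 and 2.66 in the control cultures. Of 41 actin and adhesion genes, 6 rose and 2 fell, which turned with quantile normalization to 1 higher and 5 lower. MYH9, a non-muscle myosin heavy chain, had 0.458 and 0.433 in the siOCT4 cultures, against 0.161 and 0.213 in the control cultures, with a corrected direction that turned. ITGB1 and ITGA6, which pair as a laminin receptor, both fell. ITGB1 had 1.35 and 1.32 in the siOCT4 cultures, against 7.17 and 6.19 in the control cultures, and ITGA6 had 1.05 and 0.992 in the siOCT4 cultures against 5.49 and 4.74 in the control cultures.

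Of 20 YAP and TGF-beta targets, 7 rose and none fell in both fits, and quantile normalization left 4 higher and 1 lower relative to the GC trend. As deposited 10 were higher and 5 lower. The list did not move as a whole: its median change relative to the GC trend was -0.02, and 8 of the 20 had a positive change there. CCN2, a matricellular growth factor, had ratios of 1.15 and 1.17 in the siOCT4 cultures, against 0.495 and 0.478 in the control cultures. CCN1, its relative, had 1.12 and 1.07 in the siOCT4 cultures, against 0.323 and 0.314 in the control cultures. NUAK2, a kinase that supports contractility, had 0.752 and 0.729 in the siOCT4 cultures, against 0.212 and 0.227 in the control cultures. The corrected log2 changes of these 3 genes lay between 1.18 and 1.24.

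RNAs that are not translated give the same comparison without a protein product. NEAT1 and MALAT1 both had a recurrent ratio, which kept other genes from being named, and are described whatever their values. NEAT1, the scaffold of nuclear paraspeckles, had ratios of 1.80 and 1.62 in the siOCT4 cultures, against 0.360 and 0.608 in the control cultures, and rose by 1.87 ± 0.27 as deposited (adjusted p = 0.00247) and 2.54 ± 0.29 relative to the GC trend (adjusted p = 0.0129) on the log2 scale. MALAT1, another nuclear RNA, had 1.52 and 1.60 in the siOCT4 cultures, between the 1.14 and 5.10 of the control cultures, and passed on neither scale. OIP5-AS1, NORAD and TUG1 fell, NORAD with 1.25 and 1.17 in the siOCT4 cultures against 5.13 and 4.71 in the control cultures. Of 13 listed long non-coding RNAs tested, 1 rose and 3 fell. Where in the cell each of them lies was not tested. Quantile normalization turned 2 higher and 3 lower relative to the GC trend to 1 and none. Among 16 RNAs listed as hosts of small nucleolar RNAs, 1 rose and 2 fell, SNHG16 to 0.794 and 0.898 in the siOCT4 cultures against 3.27 and 2.72 in the control cultures. Relative to the GC trend 4 of the 16 were higher and 2 lower. Their median change was 0.52 on that scale, with 12 positive, and -0.12 as deposited. Quantile normalization left 2 higher and 2 lower relative to the GC trend. 

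**Figure D5:**
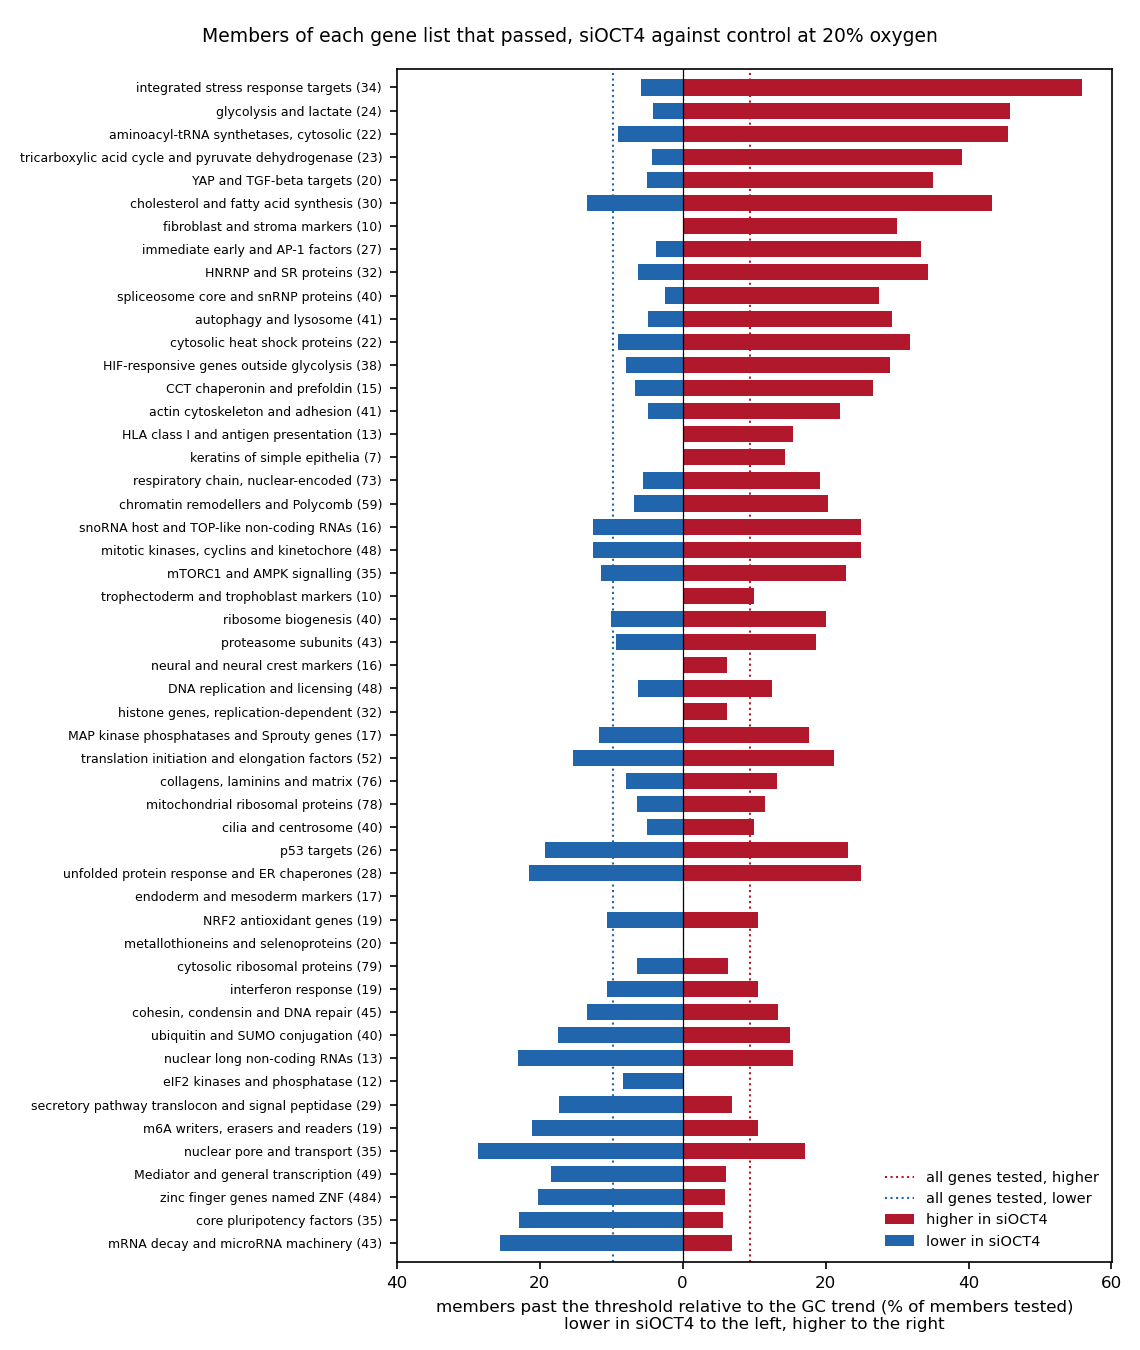
Share of the tested members of each gene list (number in brackets) that passed relative to the GC trend, lower in siOCT4 to the left and higher to the right, with dotted lines for all genes tested (9.77% lower and 9.47% higher). More members were higher than lower in 35 lists, lower than higher in 10 and equal in 6, and quantile normalization turned the majority in 19, glycolysis, lipid synthesis, matrix, chromatin and ZNF genes among them.

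Of 20 metallothionein and selenoprotein genes, 6 were higher and 4 lower as deposited and none passed relative to the GC trend, where quantile normalization called 4 higher. Of 32 replication-dependent histone genes none passed in both fits, and 28 had a recurrent ratio. NRF2 targets had 1 gene that rose and 1 that fell of 19: HMOX1, heme oxygenase, with 0.888 and 0.967 in the siOCT4 cultures against 0.242 and 0.395 in the control cultures, and GCLC, which starts glutathione synthesis, with 1.22 and 1.09 in the siOCT4 cultures against 4.53 and 3.79 in the control cultures. Of 15 chaperonin and prefoldin genes 2 rose and 1 fell, of 19 interferon response genes 2 rose and 2 fell, and of 7 keratins and 13 antigen presentation genes 1 of each rose. The antigen presentation gene that rose was HLA-G, already counted among the trophectoderm genes and with a recurrent ratio.

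For POU5F1 and the first 5 genes in each direction, the change was set beside that at 1% oxygen, relative to the GC trend (over all genes 46.6% passed the test of this difference). The first 5 genes were chosen for their change at 20% oxygen, which is part of the difference, so their differences are given as a description. The change in POU5F1 was 0.37 at 20% oxygen and -0.84 at 1% oxygen on the log2 scale, a difference of 1.21 ± 0.25 (adjusted p = 0.0110). At 1% oxygen its ratios were 0.453 and 0.532 in the siOCT4 cultures, against 1.13 and 0.810 in the control cultures. GDF15, HMX1, DUSP8, JUN and DDIT3 were higher in siOCT4 cells at 20% oxygen and lower at 1%, where their changes were -1.86, -1.52, -1.07, -0.80 and -1.69. TRIM2, ZNF180, ZNF10, REST and TIGD7 were lower at 20% and higher at 1%, by 2.80, 1.79, 1.76, 1.92 and 1.60. All 11 genes had changes of opposite sign at the 2 oxygen levels, and the steep GC trend lay in the control cultures at 20% oxygen and in the siOCT4 cultures at 1%.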

How the data were processed

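The deposited table gives 1 translation ratio per gene and culture, the RNC value over the RNA value as the authors computed it, with no counts, so the depth is unknown. The submitters' processing notes name edgeR and hg19, with no role given. Columns headed sO were read as siOCT4, and 0 columns matched no sample. The log2 ratio of genes with a ratio in all 8 columns was fitted with limma 3.58.1 in R 4.3.3 (4 group means, 4 residual degrees of freedom, trend and robust options, Benjamini-Hochberg adjustment). The second fit used the residual from a natural spline (6 degrees of freedom) on transcript GC content (GENCODE 29, joined by symbol) in each column. The fits were also run on simulated data, with 1 spread per gene shared by all groups. In the real data the control cultures differed from each other more than the siOCT4 cultures (median 0.254 against 0.137 relative to the GC trend). The simulated run is therefore no support for the calls. A ratio was called recurrent when at least 3 genes of a column shared it within a relative 2e-06. Members and lists were chosen with earlier results of these data known. The rule named POU5F1, SOX2, NANOG, NEAT1 and MALAT1 whatever their values, and the 12 genes furthest from control in each direction (by the smaller of the 2 changes) and up to 4 per list, among genes called in both fits whose groups did not overlap and that had no recurrent ratio, 173 in all; those described were chosen from them after their values were seen, and some named genes are not reported here. Same-numbered cultures did not deviate together (siOCT4 against control at 20% oxygen, r = 0.00318 as deposited; over all 6 pairs of groups, r from -0.233 to 0.0225). Alternatives were other scalings, pseudocounts, spline settings, filters, the replicate block and leaving out each culture.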

Additional observations from a re-analysis of the deposited data

Results flagged for a closer look

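The siOCT4 effect relative to the GC trend differed between the oxygen levels, by limma's test of that difference, in all 11 genes for which it was described. The effect at 20% oxygen minus that at 1% oxygen, on the log2 scale, was 1.209 for POU5F1, 6.734 for GDF15, 4.972 for HMX1, 3.742 for DUSP8, 3.446 for JUN, 4.35 for DDIT3. It was -5.371 for TRIM2, -4.214 for ZNF180, -4.075 for ZNF10, -4.205 for REST, -3.805 for TIGD7. The adjusted p lay between 0.00079 and 0.0110, and 46.6% of all genes passed the same test. All but POU5F1 were chosen for a large change at 20% oxygen, which is part of the difference, so passing was largely fixed by the choice. Each group holds 2 cultures.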

How the results depend on the processing

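As deposited, 8450 genes were called, against 1838 after quantile normalization and between 5063 and 9244 with 1 culture left out. Relative to the GC trend, 2953 were called, against 1558 after quantile normalization (554 higher and 1004 lower), 0 with the 4 columns at 20% oxygen alone and between 2 and 2542 with 1 culture left out; CALCB, GDF15, JUN and TXNIP were called without siOCT4 culture 1, and GDF15 and TXNIP without siOCT4 culture 2. Replicate numbers did not pair the cultures. With the replicate block and the GC correction 1598 genes were called, and with the replicate block as deposited 7354. Quantile normalization reversed these log2 changes relative to the GC trend: CD24 0.0326, TDGF1 0.1205, COL1A1 -0.1228, CCT3 -0.0791, PFDN1 0.3295, PMAIP1 0.4216, HK1 -0.0874, OGDH -0.0436, SDHA -0.0391, NDUFA5 0.0113, DENR 0.3373, AARS -0.1537, POLR1A -0.3137, GNL3 0.1672, UBE2K 0.1495, SNRPD3 0.5153, PRPF8 -0.3874, EFTUD2 -0.2241, POLE -0.2494, MCM7 -0.1759, RNF2 0.0308, SETDB1 -0.058, TAF9 0.0418, MED21 0.2075, ELOVL6 0.0912, SSR1 0.2596, SRP14 0.4944, HSPG2 -0.1481, MYH9 -0.3241, IFT122 -0.1813. As deposited it reversed TDGF1 0.0261, COL1A2 -0.0648, CCT3 -0.1942, PFDN1 0.2107, PMAIP1 0.0317, HK1 -0.0394, AARS -0.0173, POLR1A -0.2269, SNRPD3 0.5422, PRPF8 -0.2462, EFTUD2 -0.2383, SRSF4 -0.0104, SETDB1 -0.167, NPC1 -0.1776, SRP14 0.2775, IFT122 -0.0345, NANOG 0.1653. The cause was not tested. Depth is unknown, so no ratio can be given a counting error.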
